A study of Mus musculus with 6 samples.

Results

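Long intergenic noncoding RNAs (lincRNAs) are transcripts that lie between protein-coding genes and carry no annotated reading frame. The members described here were 120 of the 54924 rows of the deposited gene count table. They were chosen as rows with the biotype lincRNA and at least 30 raw counts in each of the 6 libraries, leaving out H19, Meg3, Gas5 and names beginning with Snhg. The table held 5559 lincRNA rows, of which 1878 had any count, and 5 rows that met the floor were left out by name. The members were thus selected on their raw counts in both groups, so the level itself is a description and not a finding. A further 31 lincRNA rows had a mean of at least 30 counts but fell under the floor in at least 1 library.

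The libraries were made from C2C12 cells, an established mouse skeletal myoblast line that fuses into myotubes in low serum. All cells had spent 6 days in differentiation medium before they were replated, and the kaempferol group then received 25 µM kaempferol, a plant flavonol, for 24 h. There were 3 control and 3 kaempferol libraries. In the labels the line reads C2C13 for the kaempferol samples, both groups carry the tag dedifferentiation, the protocol text gives the kaempferol exposure for every sample, and a vehicle in the controls is not given in the sources used here. Nothing in the sources states that replicate libraries stem from independent cultures, and the p-values therefore measure only the spread between these libraries, which may be technical.

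The libraries held between 16575790 and 18625272 counts assigned to genes. Of the 12 myotube markers listed, 10 could be tested, 2 rose and 2 fell, Tnnc2 was at 0 in every library, and their summed level ran from 956 to 1062 CPM (counts scaled to a common library size) in control and from 952 to 1033 CPM with kaempferol. Acta1 (0.26 on the log2 scale) and Myog (0.29) rose, Myh4 (-1.5) and Des (-0.15) fell, and Des held most of the sum. The 6 markers of myoblasts and dividing cells summed to between 1638 and 1765 CPM in control and between 1200 and 1294 CPM with kaempferol. Of these 6 markers 4 fell, and Pax7 and Myf5 were not among those 4. Mki67, a protein of proliferating nuclei, changed by -0.76 on the log2 scale. In such bulk samples fewer cells of a type and less RNA per cell cannot be told apart, and the part of the dividing-cell markers in the results below was not tested.

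LincRNAs act in several ways. Some build or occupy nuclear bodies, such as Neat1 in paraspeckles and Malat1 in nuclear speckles. Others coat chromatin, as Xist does on the inactive X chromosome, act on a gene beside them, bind proteins or microRNAs, or serve as the long precursor from which microRNAs are cut. Poly-T selection, used for these libraries, captures polyadenylated RNA. Short mature microRNAs are thus not measured, and forms without a poly(A) tail may be captured only in part.

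Most members carried provisional names. There were 61 predicted-gene names (Gm), 32 RIKEN names, 5 clone names and 22 other names. In the gene models behind the coordinates (GENCODE M21, GRCm38, the same assembly as mm10), 117 of the 120 were lincRNAs. RefSeq (GRCm38.p6) held 80 of the members by symbol or synonym, 70 as lncRNAs and 7 as protein-coding genes, among them 1810058I24Rik, Tmem250-ps and Zfp469. The exonic length had a median of 2735.5 bases and ran from 359 to 20771 bases, and 22 members had a single exonic block. The members lay on 20 chromosomes. The name intergenic was loose for some, since 70 members overlapped the span of another gene of any type and 51 shared exon bases with one. These genes include small RNA rows that lie inside a member. The nearest protein-coding gene overlapped the member on the opposite strand in 19 cases and on the same strand in 9. Whether the counting used strand is not given in the sources used here, so reads of such pairs cannot always be told apart.

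Several members are precursors of microRNAs, and their sequences show which small RNAs the counts below stand upstream of. On their own strand 6 members spanned 13 microRNA genes with 23 mature sequences. The mature sequences below are from RefSeq (GRCm38.p6), 5′ to 3′, with the seed, bases 2 to 8, in capitals. AL805899.1 on chromosome 4 spanned Mir31, Ftx on chromosome X spanned Mir421 and Mir374b, and Gm28653 on chromosome 1 spanned Mir206 and Mir133b, a microRNA pair of skeletal muscle. Mir17hg on chromosome 14 holds the miR-17-92 cluster, in which miR-17-5p and miR-20a-5p share a seed and miR-19a-3p and miR-19b-3p share another.
miR-31-5p: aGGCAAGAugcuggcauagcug
miR-31-3p: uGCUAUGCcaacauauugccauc
miR-421-5p: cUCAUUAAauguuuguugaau
miR-374b-5p: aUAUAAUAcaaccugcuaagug
miR-374b-3p: gGUUGUAUuaucauuguccgag
miR-206-3p: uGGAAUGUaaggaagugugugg
miR-133b-3p: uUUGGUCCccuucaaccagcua
miR-17-5p: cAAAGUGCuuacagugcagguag
miR-20a-5p: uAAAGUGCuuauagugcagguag
miR-19a-3p: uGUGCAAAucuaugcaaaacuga
miR-19b-3p: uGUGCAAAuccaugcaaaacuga
miR-92a-3p: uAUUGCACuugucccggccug

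At the whole-group level the members showed little common shift. With an edgeR quasi-likelihood test fitted on 14558 genes and Benjamini-Hochberg adjustment over all of them, 19 of the 120 members were called at an adjusted p under 0.05, of which 8 were upregulated and 11 downregulated with kaempferol. The share called was 15.8% of members, against 24.0% of all tested genes and 28.6% of the 10946 protein-coding genes that met the same floor of 30 counts. Members were called upward in 6.67% and downward in 9.17%, against 11.3% and 12.6% of all tested genes. An unadjusted p under 0.05 was reached by 17 members upward and 16 downward, and the share of all tested genes at that level was not counted. DESeq2 called 3 up and 8 down, and all 11 were among the 19. It called 20.6% of all tested genes, 1404 up and 1598 down. With upper-quartile scaling the balance turned to 10 up and 7 down, and over all tested genes from 1647 up and 1840 down to 1966 up and 1424 down. The median log2 fold change was 0.03 over the members and 0.00 over all tested genes, and 65 of the 120 values lay above 0. A fold of 1.5 was passed by 5 members and a fold of 2 by 0. Among all 14558 tested genes, 1152 passed a fold of 1.5 and 338 a fold of 2. Among the 10946 protein-coding genes at the same floor, 367 and 89 did.

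**Figure D1:**
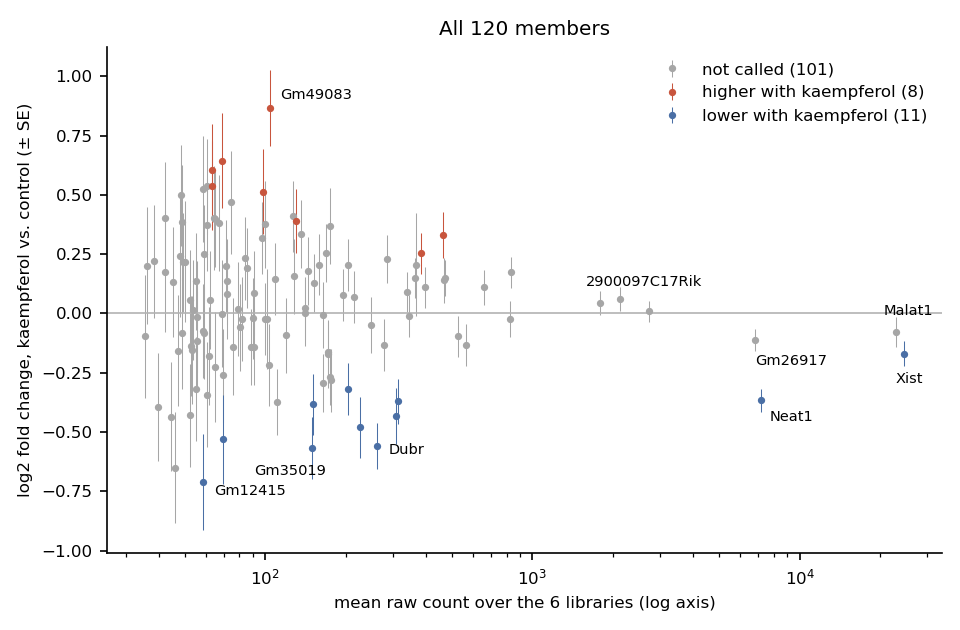
Log2 fold change of kaempferol vs. control (vertical axis, bars are standard errors) against the mean raw count over the 6 libraries (horizontal log axis) for all 120 members. The 8 upregulated members are red, the 11 downregulated members blue and the others grey; the fold changes run from -0.71 for Gm12415 to 0.87 for Gm49083, and the standard errors shrink as the count grows.

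The 3 libraries of a group did not overlap those of the other group in 17 members with kaempferol above and in 17 with kaempferol below control. Each is 14.2% of members, against 18.6% and 19.6% of all tested genes, and together they were 28.3% against 38.2%. The read level of lincRNAs sets much of the precision here. The median standard error was 0.17 on the log2 scale and ran from 0.05 to 0.26, and 63 members had a mean under 100 counts. Set beside protein-coding genes of the same read range, 9.52% of members and 12.8% of protein-coding genes were called between 30 and 100 counts. Between 100 and 300 counts the shares were 20.6% and 19.7%, and between 300 and 1000 counts they were both 25%. Of the 7 members with a mean of at least 1000 counts 2 were called, 28.6%, against 38.7% of protein-coding genes. Among the 236 tested lincRNA rows under the floor, 7.63% were called.

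**Figure D2:**
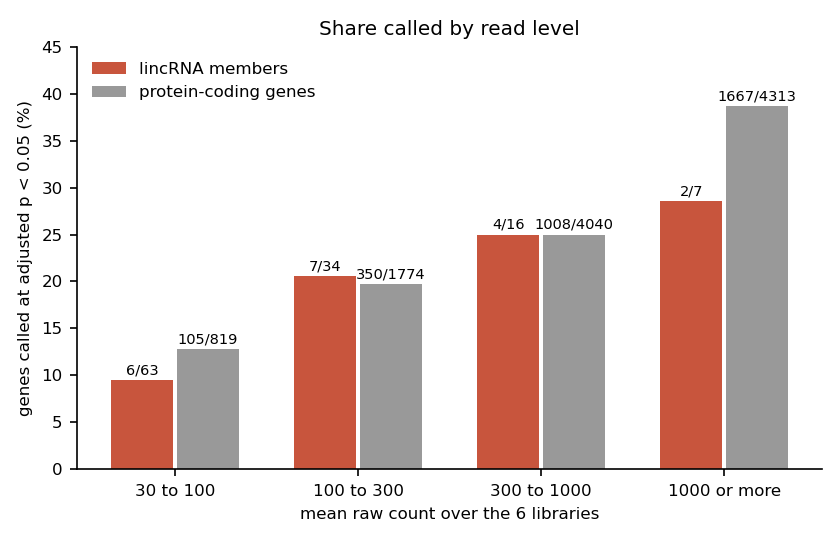
Share of genes called at an adjusted p under 0.05 (vertical axis, percent) in 4 ranges of the mean raw count, for the lincRNA members (red) and for protein-coding genes with at least 30 counts in every library (grey), with the number called and the number of genes above each bar. The shares of both kinds rise with the read level, from 9.52% and 12.8% in the lowest range to 28.6% and 38.7% in the highest.

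Just inside the floor stood Gm14221, with 42, 47 and 45 control counts and 35, 30 and 39 kaempferol counts, and Gdap10, with 55, 52 and 45 against 36, 30 and 49. Just outside stood AC154378.1, with 33, 29 and 32 control counts and 38, 49 and 56 kaempferol counts, and 1700086O06Rik, with 36, 29 and 32 against 46, 31 and 67. The 4 rows lie within a few reads of each other at their lowest library.

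A few RNAs held most of the reads. Xist, Malat1 and Neat1 together took between 62.0% and 66.2% of the counts of the members. Per kilobase of exonic length, Malat1 had the highest level at 187 CPM per kilobase, followed by Gm26917 at 117, Xist at 78.4, Gm10076 at 54.7 and Gm47015 at 37.9 CPM per kilobase. The median member stood at 2.11 CPM per kilobase and 16 members exceeded 10. Gm10076 is among the 15 members with a tested near copy elsewhere in the genome. It matched the ribosomal protein transcript Rpl41 at 99.5% of 383 bases. Its counts were 321, 297 and 391 in control and 600, 229 and 363 with kaempferol, and its reads cannot be separated with certainty from those of Rpl41. Gm26917 belongs to the rows with similarity to ribosomal RNA, and its level, 405 ± 17.6 CPM in control and 375 ± 11.4 CPM with kaempferol (SD, n = 3), did not pass the test (edgeR adjusted p = 0.0945).

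**Figure D3:**
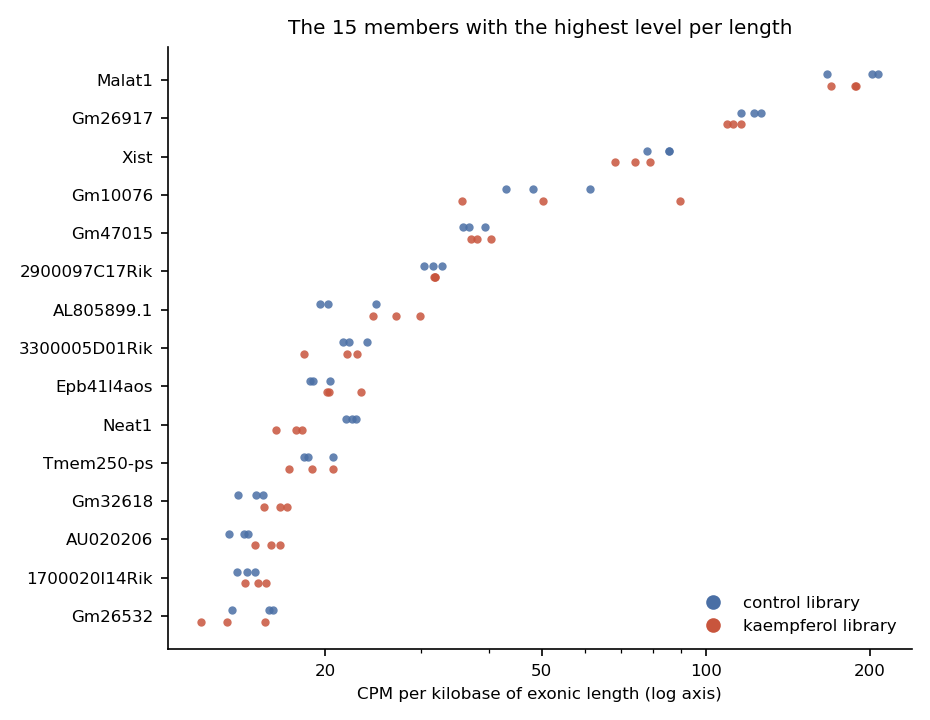
Level of the 15 members with the highest CPM per kilobase of exonic length (horizontal log axis), with a point for each control library (blue) and each kaempferol library (red). Malat1 stands highest with a mean of 187 CPM per kilobase, the libraries of Gm10076 are the most spread, and those of Neat1 separate by group.

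All members together took 0.508%, 0.519% and 0.474% of the counts of the control libraries and 0.471%, 0.469% and 0.489% of those of the kaempferol libraries. The third kaempferol library lay above the third control library, so the groups overlapped. The difference of the means was -0.0238 percentage points, with p = 0.2 in a two-sided exact permutation test that cannot go below 0.1 with 3 libraries a group.

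Among the RNAs of nuclear bodies, Neat1 was downregulated. Neat1 (ENSMUSG00000092274, chr19:5824708-5845478, minus strand) is the scaffold on which paraspeckles assemble. Its level was 455, 475 and 465 CPM in the control libraries and 377, 367 and 338 CPM in the kaempferol libraries, so every kaempferol library lay below every control library. The log2 fold change was -0.37 ± 0.05 (SE), with an edgeR adjusted p of 1.79e-05, the smallest of the 120 members. The row spans both the long form of Neat1, which lacks a poly(A) tail, and the short polyadenylated form. Libraries were made after poly-T selection, and the forms were not separated here.

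Malat1, the neighbouring speckle RNA, stood at 1411, 1449 and 1169 CPM in control and at 1318, 1188 and 1314 CPM with kaempferol. The groups overlapped because the third control library was the lowest of all 6. The log2 fold change of Malat1 was -0.08 ± 0.06 (SE) with an edgeR adjusted p of 0.428, but without that control library it was -0.17 with an adjusted p of 0.0164, so whether it was called depended on 1 library. The RNA listed as 2900097C17Rik, which RefSeq names Norad and which binds the Pumilio proteins, was level at 155 ± 6.12 and 156 ± 0.50 CPM (SD, n = 3). It matched another member, Gm7292, at 99.2% of 2537 bases, so the reads of these rows cannot be separated with certainty. In the list of nuclear and stress lncRNAs 0 of the 6 tested genes rose and 1, Neat1, fell, beside 24.0% called among all tested genes. Tug1, Firre and Kcnq1ot1, which are not members, lay between -0.05 and -0.01 on the log2 scale and did not pass.

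On the X chromosome, both members of the X-inactivation centre were downregulated, by small amounts and near the threshold. In the list of X chromosome dosage lncRNAs 0 of 4 tested genes rose and 2 fell, beside 24.0% called among all tested genes. DESeq2 called 1 of the 4, beside 20.6% of all tested genes. Xist (ENSMUSG00000086503, chrX:103460366-103483254, minus strand) had 1535, 1537 and 1398 CPM in control and 1224, 1334 and 1418 CPM with kaempferol. The highest kaempferol library exceeded the lowest control library. Xist changed by -0.17 ± 0.05 (SE) on the log2 scale with an edgeR adjusted p of 0.026, and leaving out single libraries moved its adjusted p past 0.05 in 4 of 6 fits, up to 0.146. Tsix, the antisense partner that overlaps Xist, had at most 4 counts in a library.

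Ftx (ENSMUSG00000086370, chrX:103560907-103623754, minus strand), a noncoding gene beside Xist that is known in mouse as an activator of it, had 8.44, 10.7 and 10.2 CPM in control and 7.81, 7.37 and 7.34 CPM with kaempferol. The groups did not overlap. Its log2 fold change was -0.38 ± 0.13 (SE) with an edgeR adjusted p of 0.0372, and 8 of 12 alternative fits put it above 0.05, with DESeq2 at 0.0708. Jpx, the next gene of the same centre, fell short of the floor with 26 counts in a kaempferol library and had a log2 fold change of -0.38 that did not pass (edgeR adjusted p = 0.304). Of the 395 tested protein-coding genes of chromosome X, 42 rose and 73 fell, 29.1% in all, with a median log2 fold change of -0.01.

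The promoters of Xist, Ftx and the muscle RNA Dubr are shown because these are the downregulated members with a known role whose RefSeq start lies within 21 bases of the one in the count table. Gm12415 and 5930430L01Rik, which also fell and have such a start, hold 0 of the motifs searched and are not shown. Each run holds 250 bases before to 50 bases after the start, from RefSeq (GRCm38.p6), 5′ to 3′ on the gene's own minus strand. Capitals mark the letters GCGTG on either strand, the core to which the aryl hydrocarbon receptor binds, and 2 of these lie in the window of Xist, 2 in that of Dubr and 0 in that of Ftx. The windows are chrX:103483184-103483483 for Xist, chrX:103623705-103624004 for Ftx and chr16:50732724-50733023 for Dubr.
Xist: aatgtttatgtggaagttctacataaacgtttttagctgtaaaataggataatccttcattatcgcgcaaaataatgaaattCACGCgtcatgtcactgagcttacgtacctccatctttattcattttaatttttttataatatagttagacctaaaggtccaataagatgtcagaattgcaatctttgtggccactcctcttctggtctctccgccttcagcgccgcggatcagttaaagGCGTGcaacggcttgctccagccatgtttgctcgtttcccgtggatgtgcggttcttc
Ftx: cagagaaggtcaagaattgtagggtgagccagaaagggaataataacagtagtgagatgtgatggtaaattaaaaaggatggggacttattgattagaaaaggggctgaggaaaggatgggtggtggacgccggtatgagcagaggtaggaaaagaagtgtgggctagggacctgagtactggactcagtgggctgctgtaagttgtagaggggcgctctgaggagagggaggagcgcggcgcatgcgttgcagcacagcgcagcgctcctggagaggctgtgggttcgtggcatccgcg
Dubr: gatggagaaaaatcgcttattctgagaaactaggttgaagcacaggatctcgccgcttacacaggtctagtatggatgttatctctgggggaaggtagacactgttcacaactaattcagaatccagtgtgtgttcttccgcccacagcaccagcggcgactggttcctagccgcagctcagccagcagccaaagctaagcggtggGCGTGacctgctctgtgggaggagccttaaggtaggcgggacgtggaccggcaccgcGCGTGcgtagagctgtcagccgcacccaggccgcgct

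Promoter windows of this length were found for 63 members, with no limit on how far the start lies from the one in the count table. The core GCGTG was in 36.5% of them and in 32.4% of all 32851 windows of the reference table. The antioxidant response core TGACNNNGC was in 9.52% of the member windows and 12.4% of all windows. The p53-binding decamer, searched by its consensus on both strands, was in 7.94% and 8.36%. Among the 8 called members with a window, 4 held GCGTG and 0 held either of the other motifs. Gm14005 is among these 4, and its RefSeq start lies 73414 bases from the one in the count table. The motif shares of the members thus lay near those of all windows, and a match describes letters only.

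Among RNAs tied to muscle, Dubr was downregulated. Dubr (ENSMUSG00000022639, chr16:50719294-50732773, minus strand), also called Dum, is known in mouse as a lncRNA that promotes myoblast differentiation. It had 18.3, 16.4 and 18.9 CPM in control and 12.5, 11.8 and 12.1 CPM with kaempferol. All 3 kaempferol libraries lay close together and below every control library. Dubr changed by -0.56 ± 0.10 (SE) on the log2 scale with an edgeR adjusted p of 0.000368, and it stayed between -0.61 and -0.52 in the 12 alternative fits, each of which called it.

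The other muscle RNAs did not pass the test. Gm28653, the precursor of miR-206 and miR-133b, had 191, 228 and 158 counts in control and 137, 152 and 195 counts with kaempferol. Its groups overlapped and its log2 fold change was -0.28 ± 0.13 (SE) with an edgeR adjusted p of 0.143. Bvht, called Braveheart and known from cardiac differentiation in mouse, stood at 7.08 ± 0.63 and 6.66 ± 1.44 CPM (SD, n = 3). The list of muscle lncRNAs thus had 1 fall and 0 rises among 7 tested genes, beside 24.0% called among all tested genes.

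Among the microRNA precursors, AL805899.1 was upregulated and Ftx, given above, was downregulated. AL805899.1 (chr4:88909855-88938521, minus strand), which spans Mir31, had 21.3, 22.0 and 27.0 CPM in control and 26.7, 32.5 and 29.4 CPM with kaempferol. The third control library slightly exceeded the first kaempferol library. The log2 fold change was 0.33 ± 0.10 (SE) with an edgeR adjusted p of 0.0177, and 3 of the 6 fits that left out a library put it above 0.05, up to 0.0957. The row of Mir31 itself was at 0 in all 6 libraries. It lies within exon bases of AL805899.1 on the same strand.

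Mir17hg, the precursor of the miR-17-92 cluster that is known to act downstream of Myc, had 4.33, 4.90 and 8.50 CPM in control and 6.43, 4.97 and 5.95 CPM with kaempferol. One control library stood well above the other two, and the log2 fold change of Mir17hg, -0.02 with all libraries, was 0.32 without it (edgeR adjusted p = 0.232). Of the 6 members that span a microRNA on their own strand, 2 were called, AL805899.1 upward and Ftx downward. The list of known microRNA host lncRNAs, which does not hold AL805899.1, had 10 tested genes, of which 0 rose and 1, Ftx, fell, beside 24.0% called among all tested genes.

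Among the RNAs linked to growth, survival and the p53 response, Gm14005 was downregulated. RefSeq names it Morrbid, a lncRNA known in mouse myeloid cells to hold down its neighbour Bcl2l11, which encodes the pro-apoptotic protein BIM. Gm14005 (chr2:128178319-128502765, minus strand) had 19.2, 18.5 and 23.4 CPM in control and 17.1, 15.6 and 12.6 CPM with kaempferol. The groups did not overlap, although the highest kaempferol library came close to the lowest control library. The log2 fold change was -0.43 ± 0.12 (SE) with an edgeR adjusted p of 0.0117, and it was called in 10 of 12 alternative fits. Bcl2l11, whose end lies 15772 bases from that of Gm14005, had 256, 262 and 168 counts in control and 354, 354 and 369 with kaempferol. Its log2 fold change was 0.63 ± 0.12 (SE) with an edgeR adjusted p of 0.000777. Whether the changes of Gm14005 and Bcl2l11 are linked was not tested.

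The remaining named RNAs of growth did not pass. The RNA listed as 1700020I14Rik, which RefSeq names Oip5os1 and which is also known as Cyrano, a regulator of miR-7, stood at 119 ± 4.52 and 124 ± 5.53 CPM (SD, n = 3). Pvt1, which lies beside Myc, had a log2 fold change of 0.21 ± 0.11 (SE) with an edgeR adjusted p of 0.194. Hotair of the HoxC cluster was at 0.15, Epb41l4aos at 0.13 and Lncpint, a p53-induced RNA, at -0.14 on the log2 scale. Of 13 tested genes in the growth list 0 rose and 2 fell, Dubr and Gm14005, beside 24.0% called among all tested genes. Of 8 tested in the p53 list 0 rose and 1, Neat1, fell, with Gm26809 at 0.18 and the non-member Trp53cor1 at 0.79 (edgeR adjusted p = 0.139). The imprinted list had 4 tested genes, none of them a member, and 0 of them passed in either direction with edgeR or DESeq2, while 1 had an unadjusted p under 0.05. The small-protein list had 5 tested genes with 0 calls by edgeR or DESeq2 and 2 with an unadjusted p under 0.05. Its 1 member, 1810058I24Rik, which has the synonym Stmp1 and is a protein-coding gene in RefSeq, had a log2 fold change of 0.11.

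Most of the other called members have no assigned role. Gm35019 (ENSMUSG00000115326, chr15:37892995-37899716, minus strand) had 10.5, 9.52 and 10.9 CPM in control and 6.61, 6.23 and 7.92 CPM with kaempferol. The groups were well apart, with a log2 fold change of -0.57 ± 0.13 (SE) and an edgeR adjusted p of 0.0038. Gm12415 had the largest fall of the called members, from 79, 79 and 59 counts to 37, 47 and 51 counts, a log2 fold change of -0.71 ± 0.20 (SE) with an edgeR adjusted p of 0.0169. Neither of these 2 genes overlapped another gene.

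Smaller falls were seen in 4 further members. Gm36377 changed by -0.53, 5930430L01Rik by -0.37 and Gm28875 by -0.32 on the log2 scale, and in each every kaempferol library lay below every control library. Gm36377 and Gm28875 were near the threshold (edgeR adjusted p = 0.0486 and 0.0452) and were called in 4 and 3 of 12 alternative fits, respectively. Exon bases of 5930430L01Rik are shared on the same strand with the protein-coding Gm42791, which had at most 13 counts in a library. Gm36377 shares exon bases with D030007L05Rik. Gm38399 changed by -0.48 on the log2 scale, but it shares exon bases on the same strand with Nav1, the gene of a neuron navigator protein, which itself changed by -0.22 (edgeR adjusted p = 0.012). Its reads and those of Nav1 cannot be fully separated.

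**Figure D4:**
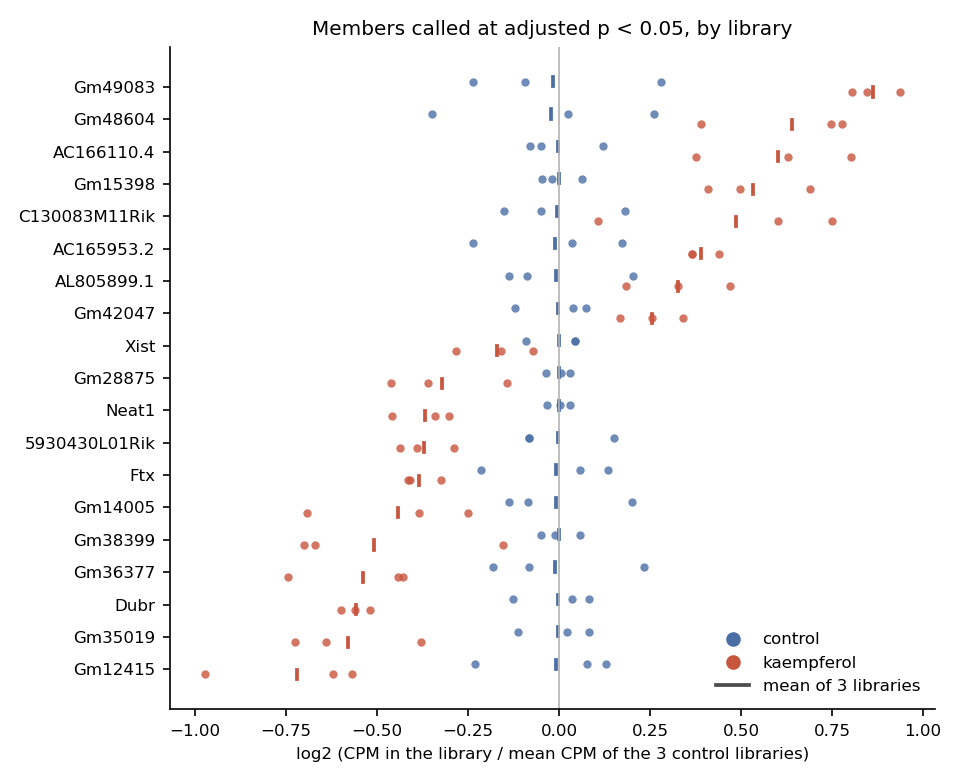
The 19 called members, ordered by fold change, with the CPM of each library relative to the mean of the 3 control libraries (log2, horizontal axis). Points are libraries, blue for control and red for kaempferol, and short lines are group means; the groups separate without overlap in 6 upregulated and 10 downregulated members, and overlap in Xist, AL805899.1 and C130083M11Rik.

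Among the upregulated members, Gm49083 changed most. Gm49083 (ENSMUSG00000115354, chr14:43804696-43812383, minus strand) had 3.58, 3.95 and 5.12 CPM in control and 7.58, 7.37 and 8.08 CPM with kaempferol. The kaempferol libraries lay well above the control libraries, with a log2 fold change of 0.87 ± 0.16 (SE) and an edgeR adjusted p of 0.000618. The gene has close copies in the same region of chromosome 14, which limits how its reads can be placed. The copy Gm8113 matched it at 96.9% of 2386 bases and rose from 68, 35 and 37 counts to 79, 97 and 117 counts (log2 fold change 1.03, edgeR adjusted p = 0.00328). The copy Gm47547 had a log2 fold change of 0.27 that did not pass (edgeR adjusted p = 0.302).

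Other upregulated members also shared sequence with coding genes. AC166110.4 rose by 0.61 ± 0.19 (SE) on the log2 scale, from 47, 56 and 46 counts to 87, 74 and 70 counts, with an edgeR adjusted p of 0.0291. It matched Sod2, the gene of mitochondrial superoxide dismutase, at 98.5% of 3108 aligned bases, and Sod2 itself had 1130 to 1367 counts in control and 1329 to 1500 with kaempferol, a log2 fold change of 0.16 (edgeR adjusted p = 0.0767). A second coding gene that shares sequence with it, Rps6ka2, a ribosomal S6 kinase, rose from 613, 666 and 570 counts to 705, 729 and 852 counts (log2 fold change 0.28, edgeR adjusted p = 0.00693). AC165953.2 (0.39 on the log2 scale) shares exon bases with Scaf8 and matched Cd2ap at 96.6% of 2015 bases, and neither Scaf8 (-0.02) nor Cd2ap (-0.04) passed the test. Gm48604 (0.64) shares exon bases on the same strand with Hinfp, a regulator of histone H4 genes, which was at -0.09 and did not pass.

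Gm15398 rose by 0.54 on the log2 scale, from 53, 51 and 48 counts to 72, 65 and 89 counts, and overlaps Pcdh15 on the opposite strand, a gene with at most 5 counts in a library. Gm42047 rose by 0.25, from 354, 377 and 304 counts to 414, 421 and 421 counts. It matched Gm48362 at 98.4% of 3209 bases, a near copy elsewhere that had at most 3 counts in a library and was not tested. C130083M11Rik rose by 0.51, from 72, 94 and 74 counts to 122, 83 and 146 counts, with the second kaempferol library inside the control range. These 3 members were called in 3, 5 and 6 of 12 alternative fits. Of the 19 called members, 15 overlapped another gene of any type. Exon bases on the same strand as a protein-coding gene were shared by 4, and 3 had a tested near copy elsewhere in the genome.

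LincRNAs are often compared with the genes beside them. The nearest protein-coding gene was tested for 90 members, and 25 of these neighbours were called, 27.8% against 26.7% of all tested protein-coding genes. Across these 90 pairs the fold changes of member and neighbour had a Pearson r of -0.13 and a Spearman rho of -0.19, a description over pairs that share all 6 libraries. Of the 10 called members with a tested neighbour, 5 had a called neighbour, 2 in the same and 3 in the opposite direction.

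Neat1 and Frmd8 moved oppositely. Frmd8, which encodes a FERM-domain protein that stabilises the iRhom proteins, lies 4224 bases from Neat1 on the same strand and had 1745, 1755 and 1588 counts in control and 2335, 2122 and 2475 with kaempferol. Frmd8 thus rose by 0.42 ± 0.05 (SE) on the log2 scale with an edgeR adjusted p of 2.91e-06. Beside Gm28875, Syne3, which encodes the nuclear envelope protein nesprin-3, fell from 1655, 1774 and 1666 counts to 1083, 1073 and 1294 counts, a log2 fold change of -0.59 (edgeR adjusted p = 2e-07). Gm28875 lies 3244 bases downstream of Syne3 on the same strand, and whether its reads stem from a separate transcript was not tested. Beside C130083M11Rik, Dhx15, an RNA helicase of the spliceosome, changed by -0.16 (edgeR adjusted p = 0.0219). The neighbours of Gm35019, Gm36377 and Gm12415, which are Rrm2b, Ice1 and Bnc2, did not pass.

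**Figure D5:**
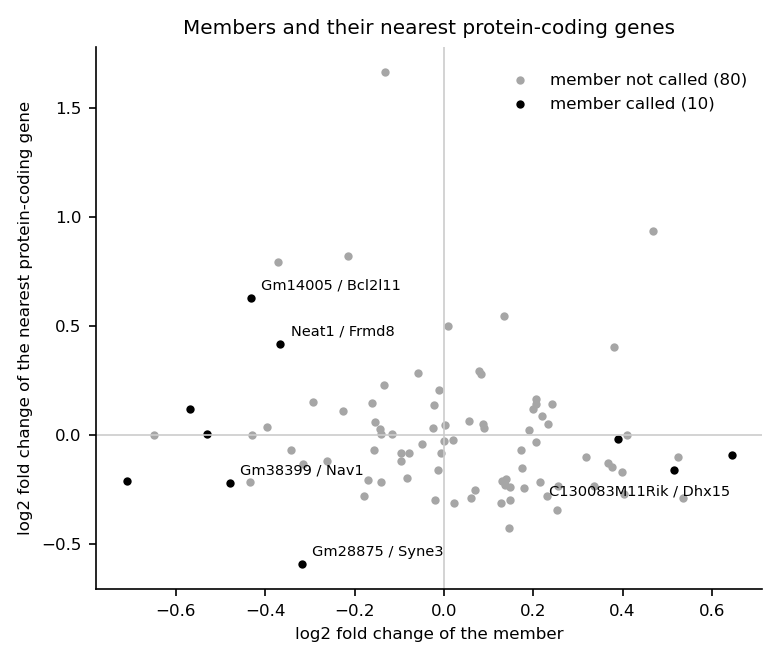
Log2 fold change of the nearest protein-coding gene (vertical axis) against that of the member (horizontal axis) for the 90 pairs in which both were tested. Black points are the 10 called members and grey points the 80 others; the points show no common diagonal (Pearson r -0.13), and Gm14005 with Bcl2l11 and Neat1 with Frmd8 lie in the upper left, where the member is lower and the neighbour higher with kaempferol.

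A closer kind of neighbour is a coding gene that starts within 1000 bases in the opposite direction. There were 13 such pairs, in which 5 neighbours and 0 members were called by edgeR, and 7 pairs had the same sign. Among all tested genes 24.0% were called, and among protein-coding genes 26.7%. DESeq2 called 0 of the 13 members as well, and 1 had an unadjusted p under 0.05. Of the called neighbours, Setd1b (-0.27), Fam120a (-0.17) and Kmt2e (-0.20) fell. Their members AI480526 (0.40), Fam120aos (0.40) and 5031425E22Rik (0.14) had values above 0. Cyr61 (-0.21) fell beside Gm17501 (-0.17). The remaining called neighbour rose, in a pair named here after its values were seen. This was Gm17586 with Mafg, the gene of a small MAF factor, 168 bases away. Gm17586 had 59, 69 and 46 counts in control and 78, 86 and 66 with kaempferol, a log2 fold change of 0.38 that did not pass (edgeR adjusted p = 0.187), while Mafg had 0.40 (edgeR adjusted p = 4.69e-06). A pair outside these 13, also named after its values were seen, was Ptgs2os2 with Ptgs2, the inducible cyclooxygenase. These genes lie on opposite strands with their ends facing each other, 50816 bases apart. Ptgs2 rose from 680, 698 and 634 counts to 1283, 1123 and 1526 counts, and Ptgs2os2 had 62, 84 and 39 counts against 82, 73 and 106, a log2 fold change of 0.47 that did not pass (edgeR adjusted p = 0.13).

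The calls differed in how far they held across 12 alternative fits, which changed the tool, the scaling, the filter, the model (the replicate number as a block) or the libraries used. The block alone removed 8 of the 19 calls, and 18.9% of all tested genes were called under it. Neat1, Dubr, Gm35019 and Gm49083 were called in each of the 12, and 5930430L01Rik was called in 11. Without the first control library the number of called members was 8 in place of 19, and the share called among all tested genes fell as well, from 24.0% to 16.4%. An adjusted p under 0.01 was reached by 5 members, of which 1 rose and 4 fell. The share of all tested genes at that level was not counted.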

How the data were processed

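RNA of the 6 libraries was poly-T selected and sequenced. The submitters' processing notes name the build mm10 and the tools fastp, HISAT2 2.0.5 (an aligner), StringTie 1.3.3b, featureCounts 1.5.0-p3 (a read counter) and DESeq2 1.20.0, without settings. The deposited values are raw counts per gene, not normalized, and the file also holds gene coordinates, lengths and biotypes.

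The counts were filtered with edgeR 4.0.16 (filterByExpr, minimum count 10, total 15), scaled with TMM factors and fitted with a quasi-likelihood model on group alone. The 14558 genes left were tested and adjusted together, with DESeq2 1.42.0 as an alternative. CPM values use the TMM-scaled library sizes, and standard errors are those of the log2 fold change. Near copies were sought with BLAST+ 2.17.0 among GENCODE M21 transcripts (at least 95% identity over 100 bases). The script was tested on simulated data. The members and the gene lists were chosen with earlier results of these data known. Named genes are the members in a list, up to 12 called members with the largest rise and 12 with the largest fall, the 10 with the largest mean count, those nearest to the floor, and the nearest protein-coding gene of each.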

Additional observations from a re-analysis of the deposited data

How the results depend on the processing

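The number of called members was 19 (8 up, 11 down). It was 11 with DESeq2 (3 up) and 11 with the replicate block (4 up, 7 down). In those fits 20.6% and 18.9% of all tested genes were called. With upper-quartile factors 10 were up and 7 down, and without a filter, with RLE factors or with at least 10 counts in every library the count stayed within 18 to 20. Leaving out single libraries gave 8 to 15 calls, 2 to 8 up and 5 to 9 down, while 16.4% to 21.4% of all tested genes were called in those fits. At an adjusted p under 0.01 there were 5 (1 up, 4 down). With a floor of 100 counts 11 of 49 members were called (2 up), beside 24.0% of all tested genes in the main fit. Without members that overlap another gene of any type 4 of 50 were called (1 up, 3 down). This setting also left out Neat1 and Dubr, whose overlapping rows had 0 counts in every library. Without members with a tested near copy elsewhere or an exon shared on the same strand with a protein-coding gene, 4 were up. This alternative was chosen after seeing the data, and it kept Gm42047, whose near copies were not tested. The settings by floor, by overlap and by copy or shared exon hold fewer members (49, 50 and 101), and the cause of the others was not tested.

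The replicate numbers did not pair the libraries, since deviations of same-numbered libraries correlated at -0.02, -0.06 and -0.05. Under that block AC165953.2, C130083M11Rik, Ftx, Gm15398, Gm28875, Gm36377, Gm42047 and Xist lost their calls. The difference in the share of library counts in members was -0.0102 percentage points without Xist and ran from -0.037 to -0.0144 without single libraries. No fold change that passed the test changed its direction under any alternative. Depth limits the members under 100 counts most, where the smallest changes may pass undetected.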
